A study of Mus musculus with 38 samples.

Results

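BMP4 was added to fibroblasts that carried Jdp2, Glis1, Esrrb and Sall4 (JGES), and the RNA present after 3 days was compared with that of the same cells kept without BMP4. The cells were E13.5 mouse embryonic fibroblasts (MEFs) of the OG2 reporter line crossed with 129S4/SvJaeJ. They were infected with retroviruses encoding the 4 factors and then cultured in the reprogramming medium iCD3, either alone or with BMP4 at 10 ng/ml. All bulk groups described here, the controls included, carried the JGES factors, so each comparison shows BMP4 on top of the factors and not BMP4 on plain MEFs. The study describes the first days of culture as the time when BMP4 acts. The medium of both arms held vitamin C, LIF, bFGF, the GSK3 inhibitor CHIR99021 that activates WNT signaling, and inhibitors of DOT1L (SGC0946), LSD1 and ROCK (Y27632). Every gene of the bulk FPKM table entered, apart from 1379 short RNAs, which left 34597 of 35976 genes. Of these, 14024 had an FPKM (a level scaled to transcript length and library size) of at least 1 in either day 3 library and were compared. There was 1 library with BMP4 and 1 without it, so no difference at day 3 has a replicate error, and sizes are described without a test. Libraries of JGES cells at days 0, 1, 5 and 7 and single cells at day 7 served as further readings of the day 3 genes.

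BMP4 is a secreted ligand of the TGF-beta superfamily. It assembles type I and type II receptors, which phosphorylate SMAD1, SMAD5 and SMAD9. These bind SMAD4, enter the nucleus and switch on a small set of direct targets, among them the Id genes, which hold back basic helix-loop-helix factors, and the inhibitory SMADs, which close a negative feedback loop. In the embryo the pathway patterns mesoderm, extra-embryonic tissue and surface ectoderm. In mouse embryonic stem cells it can help to keep the undifferentiated state, and in fibroblasts undergoing reprogramming it has been linked to the mesenchymal-to-epithelial transition.

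In the day 3 comparison 872 genes were at least 2-fold higher with BMP4 and 1172 were at least 2-fold lower, on the scale of log2(FPKM + 1). These are 6.22% and 8.36% of the genes compared, and every count below is to be read against those shares. The median gene differed by -0.09 on the log2 scale. From the smallest steps in the values the day 3 libraries had about 2893043 (without BMP4) and 2801938 (with BMP4) counting units, a ratio of 0.969, and the other 7 JGES libraries had 2624622 to 3176449. In a transcript of 2000 bases an FPKM of 1 then stands for about 5.79 and 5.60 such units. Values near 1 FPKM therefore rest on a handful of units, and the 2-fold calls among them are the least firm. The 14 housekeeping genes had a median difference of -0.04 and ranged from -0.27 to 0.20, with Eef1a1 at 5979 FPKM without BMP4 and 5721 with it. None of them passed 2-fold.

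**Figure D1:**
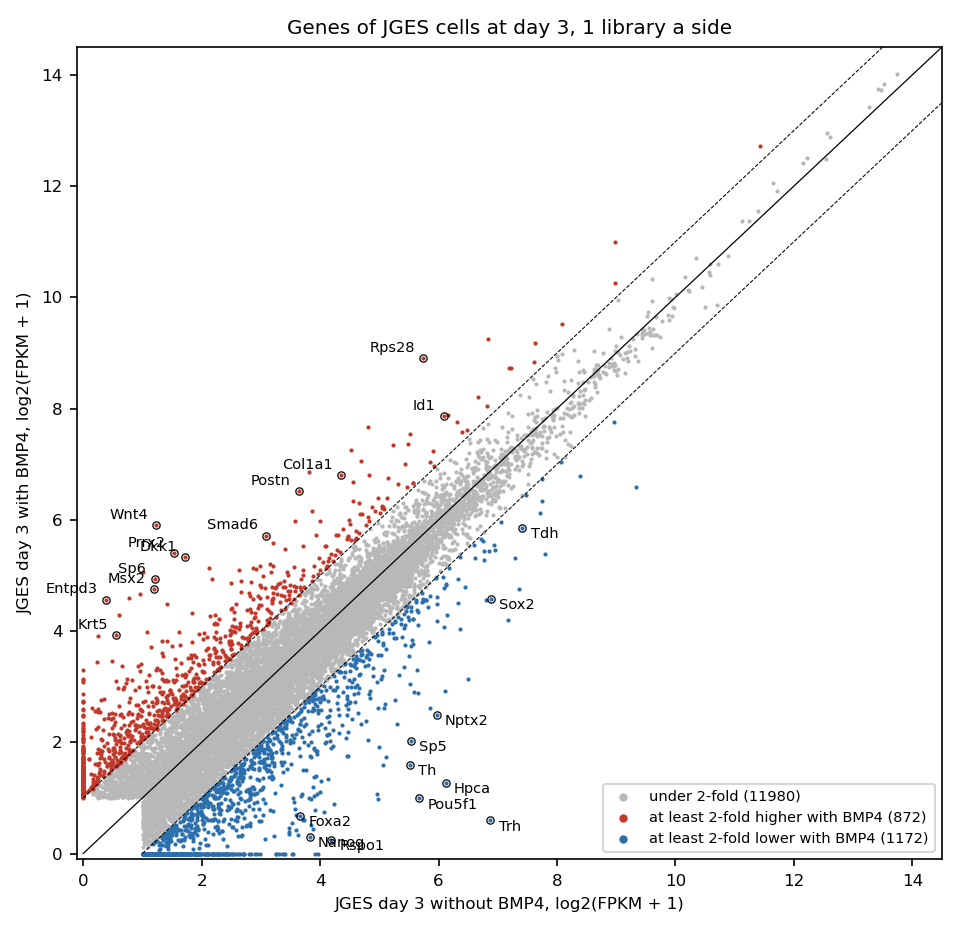
Each point is 1 of the 14024 genes compared, with its level without BMP4 on the horizontal axis and with BMP4 on the vertical axis, both as log2(FPKM + 1) in 1 library. The solid line marks equal levels and the dashed lines a 2-fold difference, and the outlying genes named include Wnt4 and Dkk1 above the lines and Trh and Pou5f1 below them.

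The direct targets of BMP signaling had the highest median of the 29 gene lists over all listed members. Over the members that reached 1 FPKM, the muscle list was above them, with 2 genes and a median of 1.77. Their median difference was 1.47, and 8 of the 12 listed genes were at least 2-fold higher with BMP4, while none was 2-fold lower. Because these genes moved together, the RefSeq promoters of those that had an entry are shown here, from 250 bases before to 50 bases after the start (GRCm38.p6, 5′ to 3′ on the strand of the gene). They cover 5 of the 8 genes. Capitals mark matches to GGCGCC, the GC-rich element bound by BMP-regulated SMADs, and to CAGAC or its reverse complement GTCTG, the short SMAD element. Both motifs were searched on both strands, and they do not overlap one another in these windows.
Msx2, chr13:53472731-53473030, minus strand: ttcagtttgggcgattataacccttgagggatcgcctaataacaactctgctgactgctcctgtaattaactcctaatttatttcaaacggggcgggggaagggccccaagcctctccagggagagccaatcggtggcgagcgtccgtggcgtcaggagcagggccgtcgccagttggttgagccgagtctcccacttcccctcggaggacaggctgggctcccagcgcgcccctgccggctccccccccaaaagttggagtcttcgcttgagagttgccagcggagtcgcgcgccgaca
Smad6, chr9:64022010-64022309, minus strand: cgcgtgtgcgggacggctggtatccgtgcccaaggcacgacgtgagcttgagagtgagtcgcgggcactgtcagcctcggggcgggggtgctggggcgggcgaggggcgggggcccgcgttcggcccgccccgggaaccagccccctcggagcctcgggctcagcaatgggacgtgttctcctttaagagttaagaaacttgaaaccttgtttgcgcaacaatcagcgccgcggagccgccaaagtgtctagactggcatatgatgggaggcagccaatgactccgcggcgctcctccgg
Smad9, chr3:54755332-54755631, plus strand: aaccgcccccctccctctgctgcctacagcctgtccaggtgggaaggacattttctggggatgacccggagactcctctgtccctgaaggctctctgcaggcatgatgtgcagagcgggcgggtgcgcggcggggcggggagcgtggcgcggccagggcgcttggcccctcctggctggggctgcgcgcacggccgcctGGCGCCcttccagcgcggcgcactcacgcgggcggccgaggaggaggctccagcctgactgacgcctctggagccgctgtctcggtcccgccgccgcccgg
Id3, chr4:136143572-136143871, plus strand: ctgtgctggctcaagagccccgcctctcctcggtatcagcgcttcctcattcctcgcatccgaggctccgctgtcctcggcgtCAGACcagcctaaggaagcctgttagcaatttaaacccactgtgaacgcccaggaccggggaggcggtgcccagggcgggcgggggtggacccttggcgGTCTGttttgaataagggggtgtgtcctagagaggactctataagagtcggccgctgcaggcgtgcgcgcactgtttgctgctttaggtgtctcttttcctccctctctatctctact
Id4, chr13:48260866-48261165, plus strand: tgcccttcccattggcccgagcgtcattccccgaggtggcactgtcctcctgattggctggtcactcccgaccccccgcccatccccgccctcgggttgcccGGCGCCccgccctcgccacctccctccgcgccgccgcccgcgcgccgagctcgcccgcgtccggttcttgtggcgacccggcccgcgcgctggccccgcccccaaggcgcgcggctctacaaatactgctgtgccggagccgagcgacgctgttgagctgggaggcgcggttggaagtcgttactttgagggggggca
Smad9 and Id4 each held 1 match to GGCGCC, Id3 held 2 to the short element, and the windows of Msx2 and Smad6 held neither. GGCGCC was found in 11.9% of all 32851 promoters listed and the short element in 49.6%. Among genes with a promoter entry, GGCGCC was present in 19.1% of the 582 higher genes, 19.6% of the 744 lower genes and 21.7% of the 10340 compared. The short element was present in 53.8%, 52.96% and 48.0% of them. A match is a description of the window and not a bound site.

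Id1 was at 67.3 FPKM without BMP4 and 233 with it at day 3, after 135 in the starting cells at day 0, which already carried the factors. Id3 was at 70.7 and 236, and Id4 at 18.1 and 40.2. The inhibitory SMADs, which block the receptors' signal, were at 7.49 and 51.5 FPKM (Smad6) and at 5.84 and 19.8 (Smad7), a difference of 2.63 and 1.61 on the log2 scale. Smad9, the third receptor-regulated SMAD of the pathway, was near the lower limit without BMP4 at 0.11 FPKM and reached 5.15 with it. Bambi, a pseudoreceptor that dampens the signal, was at 14.8 and 38.9 FPKM, and the homeobox gene Msx2 at 1.28 and 25.9. Without BMP4 the levels of Id1, Id3, Smad6 and Smad7 at day 3 lay below those of the starting cells, and with BMP4 the levels of Id1, Id3 and Smad6 lay above them, while Smad7 at 19.8 stayed under its day 0 level of 23.1.

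The other 4 listed targets were under 2-fold at day 3. Id2 was at 82.3 FPKM without BMP4 and 119 with it, Msx1 at 26.3 and 28.8, Atoh8 at 9.55 and 11.4, and Nog, which encodes the extracellular antagonist Noggin, at 1.44 and 2.41. At day 1, in libraries of their own, 10 of the 12 targets had been at least 2-fold higher, among them Nog at 1.01 and 12.4 FPKM and Atoh8 at 4.49 and 20.2. The share of all compared genes that were 2-fold higher at day 1 was 2.32%. The early difference in Nog and Atoh8 was thus no longer 2-fold in the day 3 libraries, whereas that of Msx2 went from 1.83 at day 1 to 3.56 at day 3.

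Around these targets the pathway's own parts differed little. The mediators Smad5 and Smad4 were at 20.6 and 15.2 FPKM without BMP4 and at 18.4 and 11.8 with it, and none of the 3 SMADs listed passed 2-fold. Among 8 receptors only the type I receptor gene Acvrl1 did, with 1.55 FPKM without BMP4 and 10.7 with it. The main type I and type II receptor genes Bmpr1a and Bmpr2 were at 19.2 and 19.6 and at 10.8 and 14.1. Among 7 ligands Bmp7 was lower, at 10.3 and 4.38 FPKM, though short of 2-fold under median-ratio or upper-quartile scaling, and endogenous Bmp4 was close to even at 31.0 and 33.5.

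The delivered factors were read in both libraries at levels that differed by less than 2-fold. Jdp2 was at 740 FPKM without BMP4 and 652 with it, Esrrb at 406 and 312, and Sall4 at 662 and 460, the last a difference of -0.52. These sums do not separate the retroviral transcripts from the endogenous ones. Glis1 was read at 0.28 and 0.29 FPKM in spite of being delivered, so its delivery cannot be checked from this table. Sall4 was also lower with BMP4 at day 1 (712 and 468 FPKM), day 5 (334 and 266) and day 7 (280 and 194), which is the same order on each of the 4 days and under 2-fold on each of them. Esrrb had that order too, at 480 and 348 FPKM at day 1, 192 and 173 at day 5 and 171 and 128 at day 7. Jdp2 was lower with BMP4 at day 1 (947 and 762 FPKM) and higher with it at day 5 (309 and 329) and day 7 (234 and 259). At day 0 Jdp2, Esrrb and Sall4 were already at 375, 240 and 650 FPKM, so the day 0 library is not one of plain MEFs. The part that the delivered dose played in the differences below was not tested. The NuRD complex, a chromatin remodeller that SALL4 recruits, had 13 genes with a median of -0.19 and none past 2-fold, with Rbbp7 at 122 and 110 FPKM and Chd4 at 85.8 and 87.9.

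**Figure D2:**
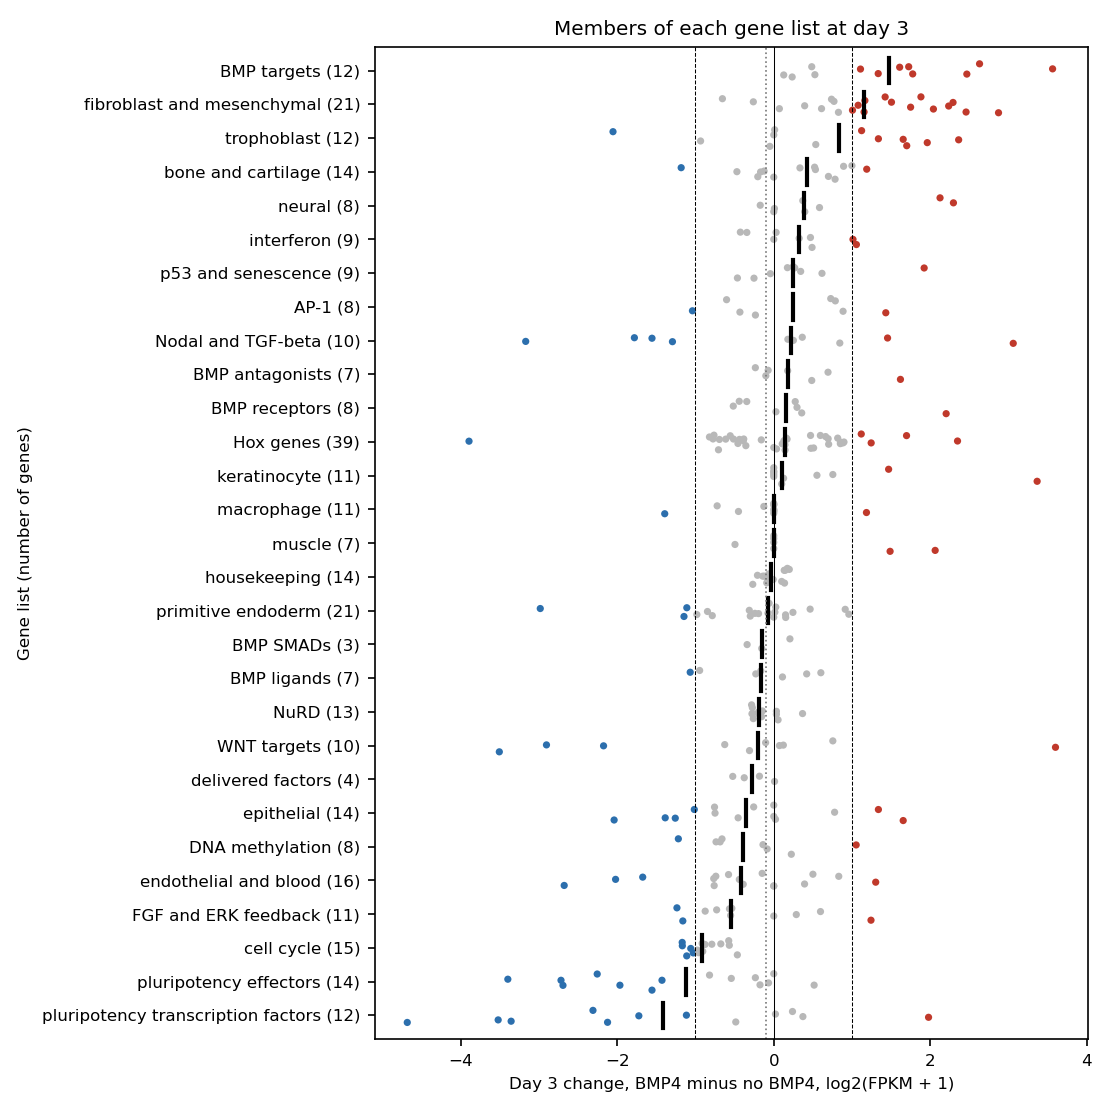
Each point is 1 gene of a list, placed at its day 3 difference (BMP4 minus no BMP4, log2(FPKM + 1)), red if at least 2-fold higher, blue if at least 2-fold lower and grey otherwise. Black bars are list medians, the dotted line is the median of all compared genes at -0.09, and over all listed members the medians run from -1.42 (pluripotency transcription factors) to 1.47 (BMP targets).

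Genes of the pluripotent state had the lowest list medians with a pseudocount of 1. With a pseudocount of 5 the cell-cycle list, at -0.83, lay below both of them. Of 12 transcription factors 7 were at least 2-fold lower with BMP4 and 1 was higher, with a median difference of -1.42. Pou5f1, which encodes OCT4, went in the culture without BMP4 from 0.93 FPKM at day 0 to 9.004 at day 1 and 50.1 at day 3. With BMP4 it was 3.39 at day 1 and 0.99 at day 3, back at its starting level. Nanog reached 13.1 FPKM without BMP4 and 0.23 with it, and Sox2 117 and 22.9. The orphan receptor gene Nr0b1 was at 9.23 FPKM and listed at 0 with BMP4, and Tfcp2l1, a factor of the naive state, was at 6.36 and 1.23. Klf4 was at 22.3 and 4.34, and Zfp42 at 1.47 and 0.14, which is close to the limit of the depth.

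Not every gene of the network was lower at day 3. Klf2 stood at 12.2 FPKM without BMP4 and 12.4 with it, and Klf5 at 32.0 and 41.7. Klf2 parted later, with 37.6 and 9.04 FPKM at day 5 and 82.9 and 3.67 at day 7. Tbx3, a T-box factor of naive cells that is also expressed in limb, heart and extra-embryonic endoderm, was higher with BMP4 on each day, at 15.9 and 49.7 FPKM at day 1 and 14.97 and 61.9 at day 3. Lin28a and Dppa2 were at 5.41 and 8.17 and at 1.78 and 1.65 FPKM. Among 14 downstream genes of the pluripotent state 7 were lower and none was higher, with a median of -1.12. They were Utf1 (9.54 FPKM without BMP4), Tdgf1 (5.47), Dppa5a (3.77), Gdf3 (2.90) and Dppa3 (1.69), all 5 listed at 0 with BMP4, then L1td1 (15.2 and 1.46) and Tdh (169 and 56.9). Tdh encodes the threonine dehydrogenase on which mouse embryonic stem cells depend, and it was the one of the 7 to be strongly expressed by day 1, at 131 FPKM without BMP4 and 39.2 with it. Most of the others became abundant only after day 3, Dppa5a for example reaching 236 FPKM at day 5 and 527 at day 7 without BMP4. At days 5 and 7 the lists had 9 and 10 of 12 factors and 14 and 13 of 14 downstream genes at least 2-fold lower, against 9.94% and 9.11% of all compared genes.

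The deepest falls included genes outside the pluripotency lists used here whose levels had climbed since day 0 in the culture without BMP4. Trh, the precursor of thyrotropin-releasing hormone, was listed at 0 at day 0 and was 5.40 FPKM at day 1 and 116 at day 3 without BMP4. With BMP4 it was 0.25 and 0.52, and the day 3 difference of -6.28 was the deepest of all named genes. Th, the tyrosine hydroxylase of catecholamine synthesis, was at 0 at day 0, at 33.3 FPKM at day 1 and at 44.9 at day 3 without BMP4, and at 3.38 and 2.03 with it. Hpca, a neuronal calcium sensor, was at 68.6 and 1.42 FPKM at day 3, and Nptx2, a neuronal pentraxin, at 61.5 and 4.62. Rspo1, a secreted amplifier of WNT signaling, was at 17.2 and 0.19. Mylk2, a myosin light chain kinase of skeletal muscle, was at 14.6 FPKM and listed at 0 with BMP4.

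These genes differed early and then drifted apart in their courses. Rspo1, Mylk2 and Th were already lower at day 1 by 2.99, 3.47 and 2.97 on the log2 scale (FPKM 23.3 and 2.06, 25.5 and 1.38, 33.3 and 3.38). By day 7 they had declined without BMP4 as well, to 0.61, 1.88 and 3.47 FPKM, and the differences were -0.23, -0.63 and -0.48. Trh, Pou5f1, Nanog and Dmrt1, a factor of the germ line, kept a difference beyond 2-fold to day 7. Foxd4, a forkhead factor, was at 10.5 FPKM without BMP4 at day 3 and listed at 0 with BMP4 on each of the 4 days. Cdc42ep5, an effector of the CDC42 GTPase, was at 30.5 and 0.96, and Nrgn, neurogranin, at 10.7 FPKM and listed at 0. Hoxb13 was listed at 0 at days 0 and 1 without BMP4 and reached 30.01 FPKM at day 3, against 1.09 with BMP4. It was the 1 lower gene among 39 Hox genes, of which Hoxa13, Hoxb9, Hoxc11 and Hoxd4 were higher, Hoxb9 at 7.42 and 26.3 FPKM, and the median of the family was 0.14. Sprr2a2, at 32.3 and 2.01 FPKM, belongs to a family of near-identical copies between which reads can be split, and its values are uncertain for that reason.

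**Figure D3:**
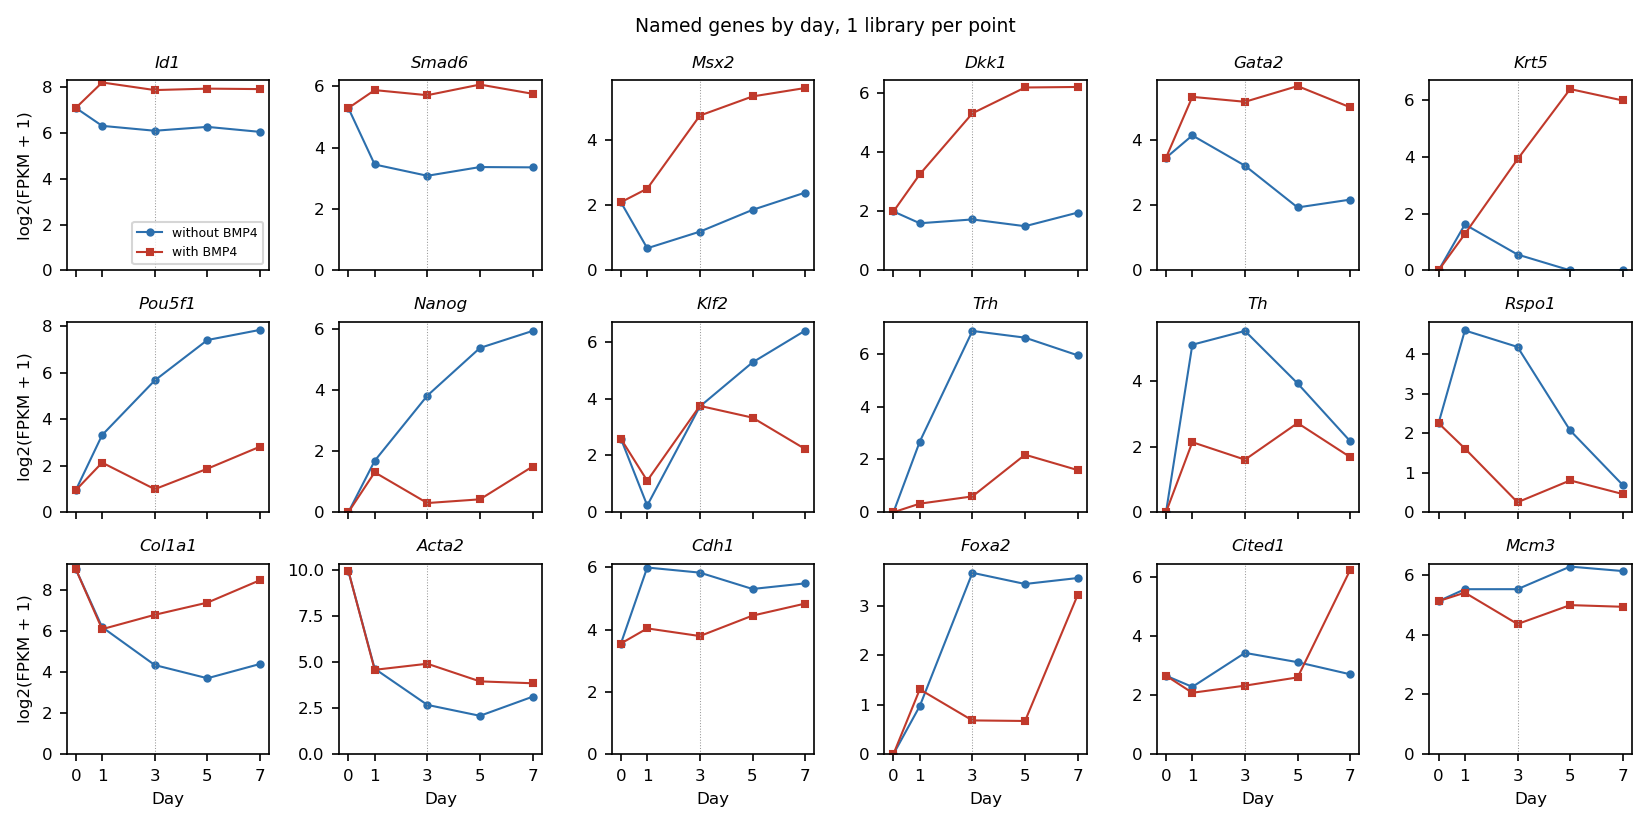
Each panel shows 1 gene over days 0, 1, 3, 5 and 7 as log2(FPKM + 1), 1 library per point, with blue circles for JGES without BMP4 and red squares for JGES with BMP4, which share the day 0 library. The dotted line marks day 3, at which Pou5f1 was 50.1 FPKM without BMP4 and 0.99 with it and Klf2 was level at 12.2 and 12.4.

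WNT and Nodal outputs did not move as blocks. Of 10 WNT targets, the mesoderm-linked factors Sp5 (45.2 and 3.06 FPKM), Cdx1 (11.1 and 0.61) and T (3.51, listed at 0 with BMP4) were lower, whereas Axin2, a general readout of beta-catenin, was at 24.8 and 23.0. Dkk1, a secreted WNT inhibitor, was at 2.31 FPKM without BMP4 and 39.1 with it, and it rose further to 72.5 at day 5 while standing at 1.82 without BMP4. The named gene with the most positive difference at day 3 was itself a WNT ligand: Wnt4 was at 1.36 and 59.0 FPKM, a difference of 4.67, after 3.74 and 18.7 at day 1. In the list of 10 Nodal and TGF-beta genes, Nodal (11.1 and 0.34 FPKM) and its feedback inhibitors Lefty1 (1.94, listed at 0 with BMP4) and Lefty2 (2.93 and 0.14) were lower together with Pmepa1 (15.8 and 5.83). Tgfb2 (2.29 and 8.01) and Tgfbi, a matrix protein induced by TGF-beta (1.68 and 21.3), were higher. With a pseudocount of 5 the Nodal and TGF-beta list had 1 lower and 1 higher gene. The FGF and ERK readouts Etv4 and Etv5 were lower, at 40.3 and 16.5 and at 52.2 and 22.8 FPKM, and Fgfr2 was higher at 2.79 and 7.96, while the remaining 8 of 11 genes were under 2-fold.

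Fibroblast and mesenchymal genes made up the second group that was higher with BMP4. Of 21 listed genes 13 were at least 2-fold higher and none was lower, with a median of 1.15. Col1a1 was at 19.4 FPKM without BMP4 and 111 with it, Postn at 11.5 and 90.4, Fn1 at 148 and 422 and Snai2, a repressor of epithelial genes, at 5.32 and 24.99. The contractile genes Acta2 and Tagln were at 5.37 and 29.0 and at 13.5 and 70.0 FPKM. The remaining members were under 2-fold, with Twist1 at 21.4 and 38.8, Vim at 229 and 383, Zeb1 at 6.69 and 5.42 and Twist2, the lowest of the list, at 6.47 and 3.74.

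The levels with BMP4 were below those of the infected day 0 cells for some of these genes and above them for others. At day 0 Postn was at 56.7 FPKM and Dcn at 1.12, under their day 3 levels with BMP4 of 90.4 and 4.58. At day 0 Col1a1 was at 524 FPKM, Acta2 at 983 and Tagln at 1228, and by day 1 they were at 72.7, 23.8 and 58.8 without BMP4 and at 67.8, 22.8 and 69.5 with it. These 3 genes thus dropped by day 1 to like levels in both cultures and separated between days 1 and 3, when they declined further without BMP4. Only 3 of the 21 genes were 2-fold higher at day 1, against 12 at day 5 and 12 at day 7, where all compared genes gave 2.32%, 7.19% and 7.98%. Acta2 and Tagln with BMP4 later decreased to 13.4 and 28.3 FPKM at day 7, whereas Col1a1 and Postn climbed to 361 and 321. In bulk RNA, fewer cells of a type and less RNA per cell cannot be told apart, so these values do not say whether more fibroblast-like cells were left or each held more of these transcripts.

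Part of the epithelial list was lower with BMP4. Cdh1, E-cadherin, was at 56.1 FPKM without BMP4 and 12.9 with it, and the difference was present at day 1 (63.0 and 15.5). Epcam (5.53 and 1.73), Cldn3 (3.83 and 0.85) and the transcription factor gene Grhl2 (1.504 and 0.24) were lower as well. The junction genes Dsp, Ocln and Cldn4 were under 2-fold, with differences of -0.76, -0.75 and -0.26, and Cldn6 and Cldn7 were at 0.02 and 0. The simple-epithelial keratins Krt8 and Krt18, also counted among the epithelial genes, were higher at 6.13 and 17.0 and at 24.2 and 78.3 FPKM, so the list of 14 had 4 lower and 2 higher genes and a median of -0.36. Grhl2 fell short of 2-fold under median-ratio or upper-quartile scaling. With a pseudocount of 5 the list had 1 lower and 1 higher gene. At day 7 the list had 7 higher and 1 lower gene and a median of 0.87, with Cldn6 at 17.3 and 85.5 FPKM and Cdh1 at 43.9 and 27.6, and 7.98% and 9.11% of all compared genes were higher and lower. Krt5, the keratin of basal epithelia, was at 0.47 and 14.2 FPKM at day 3, did not differ 2-fold at day 1, and reached 83.6 with BMP4 at day 5 while listed at 0 without it. Its usual partner Krt14 was listed at 0 in both day 3 libraries, the basal-cell factor Trp63 was at 0 and 0.47, and of the 11 keratinocyte genes Krt15 was the one other gene that was higher (2.81 and 9.54). Sp6, a zinc-finger factor of surface ectoderm and tooth, was at 1.31 and 29.7 and had been at 2.39 and 25.4 at day 1.

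Among trophoblast genes, a BMP-responsive extra-embryonic lineage, 6 of 12 were at least 2-fold higher and 1 was lower. Gata2 was at 8.26 FPKM without BMP4 and 35.1 with it, Gata3 at 2.66 and 10.9, and Hand1 at 0.18 and 5.08, and the other 3 were Krt8, Krt18 and Krt19 (88.6 and 194). Tfap2c was lower at 4.75 and 0.38 FPKM. The defining stem cell factors of the lineage did not move with them. Elf5 was listed at 0 in both libraries, Cdx2 was at 0.32 and 0.33, and Eomes at 3.81 and 3.65. GATA2, GATA3, HAND1 and the keratins are also used in other tissues, and Gata2, Hand1 and Krt18 were read in the starting cells at 9.97, 2.12 and 18.2 FPKM.

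Genes of the primitive endoderm, the lineage that lines the yolk sac, were not raised at day 3. None of 21 was 2-fold higher, 3 were lower, and the median was -0.07, next to -0.09 for all compared genes. Under median-ratio or upper-quartile scaling 1 of them, Lrp2 at 0.56 and 2.03 FPKM, passed 2-fold as higher. With a pseudocount of 0.1 there were 2 higher and 6 lower genes, and with 5 there was none higher and 1 lower. Gata4 was at 0.56 FPKM without BMP4 and 0.48 with it, Gata6 at 9.71 and 4.42 and Sox17 at 0.13 and 1.12. Foxa2 was at 11.7 and 0.60, Amn at 24.0 and 10.3, and Cited1 at 9.78 and 3.99, so the 3 genes past 2-fold were lower with BMP4. At day 7, 10 of the 21 were higher and none was lower, with Cited1 at 5.52 and 74.8 FPKM and Pitx1 at 2.72 and 35.3, against 7.98% of all compared genes that were higher. Gata4, at 10.3 and 20.7 FPKM that day, was just under 2-fold on this scale. At day 5, 1 was higher and 1 was lower, against 7.19% and 9.94% of all compared genes.

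Endothelial and blood genes held 3 lower and 1 higher of 16 at day 3. The 3 lower genes were Etv2 at 14.0 and 2.69 FPKM, Lmo2 at 47.0 and 6.51 and the VEGF receptor gene Kdr at 15.1 and 4.04. Tal1, a blood regulator, was at 1.28 and 1.05 FPKM and was not past 2-fold. Flt1 was higher at 0.10 and 1.71. Among endothelial markers that did not pass 2-fold or the FPKM limit, Cdh5 was at 0.77 and 1.33 FPKM and Pecam1 at 0.36 and 0.92, while Sox18 was at 42.3 and 24.9 and Esam at 5.56 and 2.87.

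Cell-cycle genes were lower across their list. All 15 had a lower value with BMP4, from -1.17 to -0.47 on the log2 scale, with a median of -0.91. Of these, 5 passed 2-fold, namely Mcm3 (45.2 and 19.5 FPKM), E2f1 (14.7 and 5.99), Ccnb1 (41.8 and 18.8), Mki67 (38.7 and 18.05) and Mcm2 (51.6 and 24.8). Mki67 and Mcm2 fell short of 2-fold under median-ratio or upper-quartile scaling, which left 3, and a pseudocount of 5 left 1. At day 1 the median of the list was 0.13 and none passed 2-fold, and at days 5 and 7 it was -1.34 and -1.21 with 13 and 12 genes lower, against 9.94% and 9.11% of all compared genes. Uhrf1, which guides maintenance DNA methylation in dividing cells, was at 56.6 and 23.8 FPKM, and the de novo methyltransferase gene Dnmt3b was higher at 11.8 and 25.6. The cell-cycle inhibitor Cdkn1a, the best-known p53 target, was at 397 and 333 FPKM.

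Single genes of other tissues were among the rises. Sox1 and Tubb3, both neural genes, were at 0.77 and 7.69 and at 3.41 and 18.2 FPKM, whereas Pax6 was at 0.22 in both and Neurog2 was listed at 0. Des and Actc1 were higher among 7 muscle genes (5.30 and 16.7, and 0 and 3.18 FPKM), while the myogenic factors Myod1 and Myog were listed at 0. Ibsp, a bone matrix protein, was listed at 0 and at 1.28 and Dlx1 at 1.27 and 0 among 14 bone and cartilage genes. The interferon-induced Irf7 and Ifit1 were at 1.97 and 4.98 and at 0.26 and 1.62, and the AP-1 members Fosl1 and Atf3 at 1.62 and 6.07 and at 4.02 and 1.44, the latter short of 2-fold under either scaling. Of 11 macrophage genes Ptprc, Tyrobp and Aif1 were listed at 0 in both libraries, C1qc was at 0 and 1.27 and Cd68 at 3.88 and 0.86, and the summed level of the list was 8.42 and 4.68 FPKM.

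The remaining named rises had differing histories. Prrx2, a paired-type homeobox gene of limb mesenchyme, was at 63.0 FPKM at day 0, at 6.62 without BMP4 and 24.5 with it at day 1, and at 1.88 and 41.2 at day 3. Ptx3, a soluble pattern-recognition molecule, was at 8.04 FPKM at day 0 and at 0.18 and 9.84 at day 3. Entpd3, an ectonucleotidase, and Ldoc1, a retrotransposon-derived gene with a role in placenta, were listed at 0 at day 0 and stood at 0.30 and 22.6 and at 0.52 and 18.4 at day 3. Tuba8, an alpha-tubulin, was at 0.71 and 23.1 FPKM, the long non-coding RNA AW549542 at 0.20 and 14.1, and Prph, a neuronal intermediate filament, at 0 and 7.45. Sprr2b, at 0 and 7.66, is of the same family as Sprr2a2. Rps28, a ribosomal protein gene at 52.4 and 478 FPKM, ranged from 42.1 to 772 over the 9 JGES libraries in no order by day or treatment, and its transcript is short.

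Libraries of other days were not those that chose the day 3 genes. Whether the days came from separate infections or cultures is not stated, so they are not counted as replicates. Of the 872 genes higher at day 3, 129 (14.8%) were at least 2-fold higher at day 1, 378 (43.3%) at day 5 and 357 (40.9%) at day 7, where all compared genes gave 2.32%, 7.19% and 7.98%. The opposite 2-fold difference was seen in 4.24%, 3.90% and 3.90% of them. Of the 1172 lower genes, 227 (19.4%), 443 (37.8%) and 359 (30.6%) were lower at those days, against 3.79%, 9.94% and 9.11% of all compared genes. The opposite difference was seen in 2.65%, 3.41% and 5.63% of them. Among genes with at least 5 FPKM in either day 3 library, a limit chosen after seeing the data, the shares in the same direction were 21.6%, 58.7% and 54.7% of 450 higher genes and 27.6%, 48.3% and 36.4% of 561 lower genes. All 9318 genes at that limit gave 1.80%, 7.00% and 7.42% higher and 3.03%, 8.38% and 7.67% lower. The shares were larger at days 5 and 7 than at day 1, and so were those of all compared genes. Among the 15 named rises and the 15 named falls, 9 and 9 were past 2-fold in the same direction at day 1, 13 and 12 at day 5 and 14 and 8 at day 7.

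**Figure D4:**
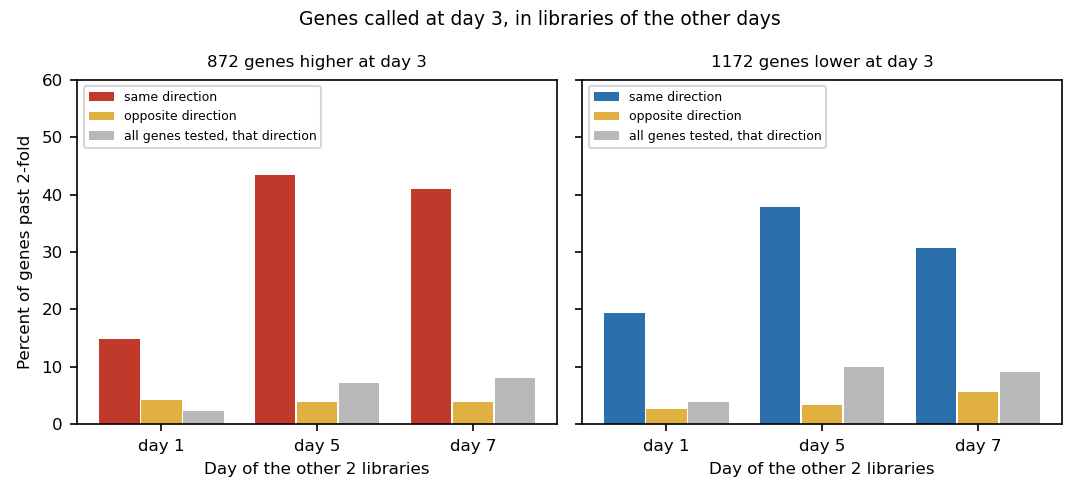
Bars give the percent of the genes called at day 3 that were at least 2-fold different at days 1, 5 and 7 in the same direction (red or blue) or in the opposite one (yellow), beside the percent of all compared genes in that direction (grey). The left panel holds the 872 higher genes, with 43.3% at day 5 against 7.19%, and the right panel the 1172 lower genes, with 37.8% against 9.94%.

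The starting level of the genes also differed between the 2 sets. At day 0, a library outside the day 3 comparison, the higher genes had a median of 2.26 FPKM and 38.3% of them were at 5 FPKM or more, while the lower genes had a median of 0.90 and 21.3%. The median of all compared genes was 6.99, so the medians of both sets lay below it. A RefSeq start was found for 792 of the 872 higher genes, 1032 of the 1172 lower ones and 13057 of the 14024 compared. Of the genes with a start, 81.7% of the higher and 75.9% of the lower ones had an accessible site within 2000 bases in MEFs (ATAC-seq peaks), against 92.3% of all compared genes with a start. A SALL4 peak (Cut&Tag of MEFs given wild-type SALL4, day 6) lay there in 60.1%, 52.0% and 78.8% of the same genes. The lower starting levels of both sets move with these lower shares, and their part in them was not tested. All 21 fibroblast genes and all 12 BMP targets had a MEF site, where 92.3% of all compared genes with a start did. So did all 15 cell-cycle genes, which were lower with BMP4, and all 14 housekeeping genes. Of the pluripotency lists, 9 of 12 transcription factors and 6 of 14 downstream genes had one.

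Single cells at day 7, with 11335 cells with BMP4 and 8685 without it in 1 sample each, gave a reading of where the day 3 genes ended up. The 2 samples were not alike in composition of their RNA: ribosomal protein transcripts took 25.7% of the UMIs (unique transcript tags) with BMP4 and 43.5% without it, mt-Co3 was at 48.0 and 9582 CPM, and 23.7% of the 12000 genes read in both assays were 2-fold higher in CPM (counts scaled to a common total) with BMP4 against 3.83% lower. What lies behind this difference was not tested, and it bears on each CPM value set between the 2 samples. Doublets were neither called nor removed here. Against that offset, 53.9% of the 653 genes higher at day 3 were 2-fold higher in the summed cells and 2.30% lower, and of the 791 genes lower at day 3, 18.2% were lower and 11.3% higher. Within the BMP4 sample, where no scaling between samples enters, 65.1% of the day 3 higher genes had their highest CPM in the cells annotated as intermediate state, compared with 30.4% of all genes, and 8.58% had it in those annotated as ParE (compared with 23.6%). Of the day 3 lower genes, 37.5% were highest in the intermediate state of that same sample. Without BMP4, 33.9% of the day 3 lower genes were highest in the pluripotent cells, compared with 26.9% of all genes. In the intermediate state without BMP4, 33.0% of the lower and 41.8% of the higher genes were highest, compared with 25.4% of all genes.

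Of the 14 named rises in the single-cell table, 11 were highest in the intermediate state of the BMP4 sample. Wnt4 was at 459 CPM there, against 50.04 in endothelial cells, 64.6 in ParE and 173 in placenta-like cells. Krt5 was at 54.4 CPM in that state and had 9189 UMIs in the BMP4 sample and 2 in the other. Postn and Col1a1 were at 276 and 281 CPM there and at 23.9 and 21.8 in ParE cells. Dkk1 (346 CPM), Msx2 (132), Prph (289) and Gata2 (247) were highest in the placenta-like cells. Cited1 was at 1123 CPM in ParE cells and 35.4 in the intermediate state, and Foxa2 at 61.7 and 2.57, although both had been lower with BMP4 at day 3. In the sample without BMP4, 9 of the 15 named falls were highest in the intermediate state, 5 in the pluripotent cells and 1 in ParE cells. Those of the intermediate state included Hoxb13 at 32.3 CPM and Sp5 at 56.0, with Rspo1, Th and Hpca at 6.59, 2.83 and 1.43. Foxd4 and Sprr2a2 were counted there too, from 43 and 4 UMIs, under the limit of 100 UMIs used for the gene sets. Pou5f1, Nanog, Trh and Dmrt1 were highest in the pluripotent cells, at 899, 99.9, 151 and 18.2 CPM.

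**Figure D5:**
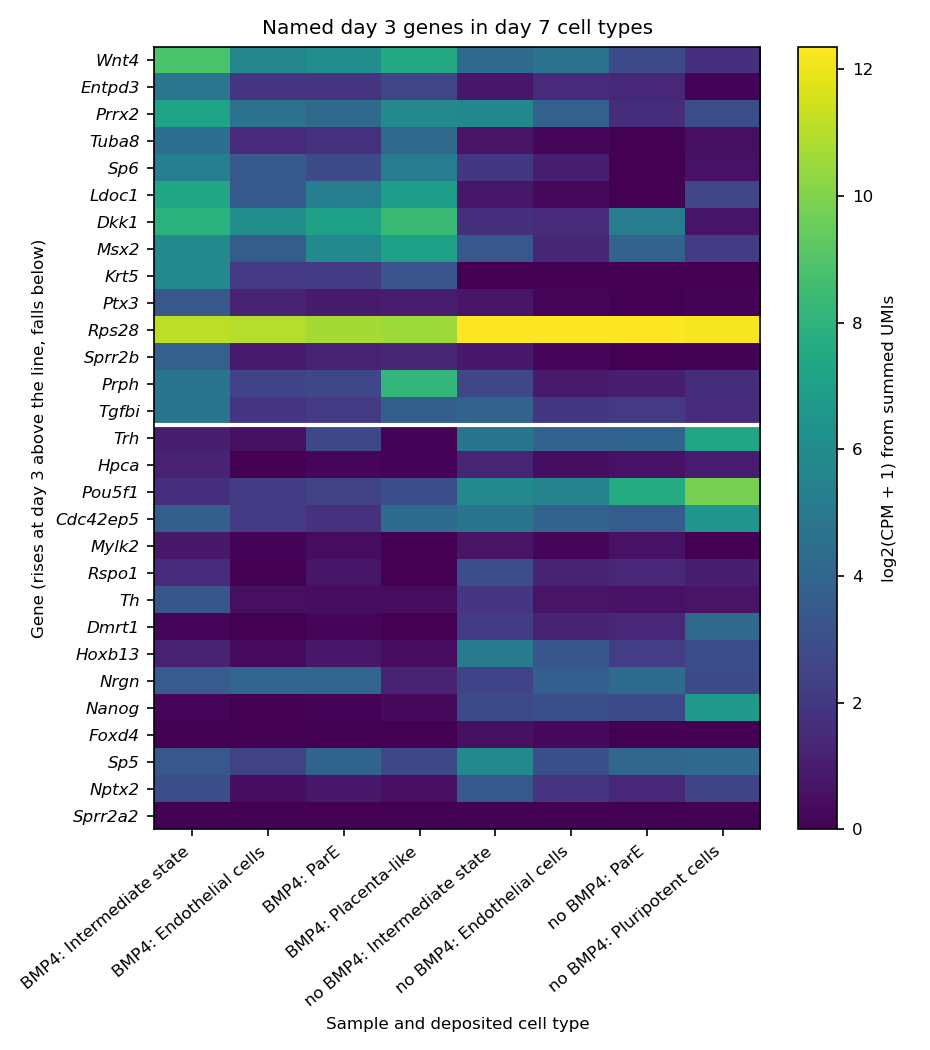
Rows are the named genes read in the single-cell table, day 3 rises above the white line and falls below it, and columns are the deposited cell types of the day 7 samples with and without BMP4. Colour is log2(CPM + 1) from summed UMIs, and Wnt4 is brightest in the intermediate state with BMP4 (459 CPM) among its row, Pou5f1 in the pluripotent cells without it (899 CPM).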

How the data were processed

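Bulk RNA-seq was deposited by the authors as FPKM per gene symbol for 17 libraries, 9 of which are JGES libraries. The other 8 columns were not used. Submitters' notes name Trim Galore 0.6.4, HISAT2 2.2.1 and StringTie 2.2.1. The table gives no counts, and each group holds 1 library, so no count model or test was run. The single-cell table deposited by the authors holds UMI counts per cell with cell types in the column names, and its 10749 MEF and ESC cells were not used. UMIs were summed per sample and type into CPM. Shares over the day 3 gene sets and all compared genes used genes with at least 100 UMIs over both samples. Named genes and list members were read whatever their UMI count. Peak lists (Bowtie2 2.4.5, MACS 1.4.2) carry the score deposited by the authors, which was not thresholded. Differences were computed as log2(FPKM + 1) with BMP4 minus without it, for genes that reached FPKM 1 in at least 1 of the day 3 pair, and called at 2-fold (Python 3.11, pandas). Short RNAs were left out by name and RefSeq biotype. Depth was estimated from the smallest steps of FPKM times RefSeq length over 14894 single-transcript genes. About 53.4% and 51.7% of low values lay within 0.05 of a whole step. Annotation differences enter this estimate, so no intervals were drawn from it. Peaks were counted within 2000 bases of RefSeq starts (GRCm38.p6). Named genes are the 15 highest and 15 lowest differences where a day 3 level reached 5 FPKM, without unnamed models, plus members of the lists that passed 2-fold. Where a list had none, the 2 of highest mean FPKM are given. A few genes that these rules name are not reported here. The members and lists were chosen with earlier results of these data known. Other members were added for contrast after their values were seen. Calls were tested on simulated data that held sampling noise only. That test does not measure the error of the calls made here. Alternatives were other pseudocounts, filters, scalings and a 1.5-fold threshold.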

Additional observations from a re-analysis of the deposited data

Results flagged for a closer look

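Some day 3 genes differed by at least 2-fold in the opposite direction on another day. The difference between days was not tested, since each day has 1 library a side. Cited1 and Amn were lower with BMP4 at day 3 and higher at day 7, by 3.54 and 1.70 on the log2 scale. Pmepa1 was likewise higher at day 7 by 1.31, and Bmp7 and Etv2 were higher at day 5 by 1.03 and 1.04. Sprr2a2 was lower at day 3 and higher at day 1 by 1.90. Rps28 was higher at day 3, and its difference at day 7 was -3.07. Hoxc11, which was at 0 and 1.17 FPKM at day 3, had a difference of -2.19 at day 1, and Hoxd4 had -1.88 at day 5 and -1.13 at day 7.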

How the results depend on the processing

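No paired analysis was possible because the day 3 groups hold 1 library each and share 1 replicate number. A fit over all days would not be one of day 3 and was not run. The number of calls follows the handling of low values. Genes higher and lower were 872 and 1172 with a pseudocount of 1, 1313 and 1741 with 0.1, 230 and 262 with 5, 450 and 561 when either library had to reach 5 FPKM, and 1901 and 2593 at 1.5-fold. Dropping the filter left the counts as they were, since a 2-fold difference with a pseudocount of 1 already needs 1 FPKM. Median-ratio and upper-quartile scaling, which change the ratio of the libraries by 0.09 and 0.08 on the log2 scale before the pseudocount is added and so move low values by less, gave 1001 and 1070 and 989 and 1074. The medians of the pluripotency transcription factors were -2.33 with a pseudocount of 0.1 and -0.60 with 5, and those of the downstream genes -2.80 and -0.31, or -1.97 over the 9 members compared. The fibroblast median was 0.76 with a pseudocount of 5, a setting that left 6 of the BMP targets higher and 5 and 4 genes of the pluripotency lists lower. Over the members compared, the trophoblast, keratinocyte and muscle medians were 1.23, 0.75 and 1.77. All 30 named genes stayed past 2-fold under the 4 settings of pseudocount and scaling. Chosen after seeing the data, a minimum of 5 FPKM was also applied to the comparison with other days, and the shares moved by less than 1.5 times.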
